A study of Mus musculus with 6 samples.

Results

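Cytosolic heat shock chaperones and their cochaperones were followed as 46 named genes of the 24421 genes in the RPKM table, each found by its gene symbol. The 46 genes comprise HSP70 and HSP110 family members, the small heat shock protein Hspb1, both cytosolic HSP90 genes, J proteins, BAG proteins with Hspbp1, HSP90 cochaperones, the heat shock factors Hsf1 and Hsf2, and the 8 subunits of the TRiC chaperonin. They were measured by RNA sequencing in macrophages (F4/80+ CD11b+) sorted from visceral white adipose tissue of male C57BL/6N mice aged 12 weeks. Every mouse ate a high-fat diet (D12492, 60 kcal% fat) and received subcutaneous injections every 6 days over 30 days. The EtOH group received the ethanol vehicle, the E2 group estradiol at 10 mg/kg and the 4-OHE1 group 4-hydroxyestrone at 10 mg/kg. 4-OHE1 is a catechol estrogen: it carries an additional hydroxyl group on the aromatic ring and a ketone where estradiol has its other hydroxyl group. Each group had 2 libraries, 6 in all. Whether a group's libraries represent separate mice or pools is not stated in the labels, and p-values therefore cover only the variation between libraries, possibly technical.

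As background, HSP70 binds exposed stretches of unfolded proteins in a cycle driven by ATP. J proteins bring clients to HSP70 and start ATP hydrolysis, and HSP110 proteins and BAG proteins release the nucleotide and so reset it. HSP90 takes over many clients, among them steroid hormone receptors and kinases, with cochaperones that link it to HSP70 or pace its cycle. TRiC, also called CCT, is a ring-shaped chamber in which actin, tubulin and other proteins fold. Many of these genes carry heat shock elements, repeats of the unit GAA in alternating orientation, at which the transcription factor HSF1 binds under proteotoxic stress. Macrophages transcribe part of this set without heat, and cell isolation can itself change it.

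The libraries held 18697456 and 35293924 exon reads in EtOH, 5349386 and 5606659 with E2, and 5764342 and 4515276 with 4-OHE1. Reads in exons were 84.6 and 85.1% of all tags in EtOH, 75.8 and 72.4% with E2, and 62.5 and 60.8% with 4-OHE1, so the groups did not overlap. RPKM divides by all tags and therefore carries this difference: on the deposited scale the median log2 change of all genes was -0.18 in E2 against EtOH, -0.44 in 4-OHE1 against EtOH and -0.25 in 4-OHE1 against E2. The words rose and fell are kept for genes with an adjusted p below 0.05 in limma and 1 direction, both on the deposited RPKM and on RPKM rescaled to exon reads. Levels below are deposited RPKM, log2 changes are on the log2(RPKM + 1) scale relative to exon reads with their standard error (SE), and of the adjusted p-values from limma (Benjamini-Hochberg) on both scales, the larger one is given. All 46 genes passed the filter of a mean of at least 1 RPKM, which 10950 genes passed. In bulk RNA, fewer cells of a type and less RNA per cell cannot be told apart.

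In 4-OHE1 macrophages, 19 of the 46 chaperone genes fell against EtOH and 2 rose. Of all 10950 genes tested, 13.9% fell and 5.74% rose in that comparison, 19.6% in all. Against E2, 15 fell and 2 rose, where 7.14% and 2.5% of all genes did, 9.64% together. Hsph1, Hspa1a, Stip1 and Bag3 were the 4 genes called lower at least 2-fold against EtOH, where 5.16% of all genes were. Against E2, Hsph1, Hspa1a and Hspa1b were the 3 called lower at least 2-fold, where 2.61% of all genes were. In E2 against EtOH, 0 of the 46 passed limma in either direction, where 3.93% of all genes did, 1.75% higher and 2.17% lower, and 0.84% lower by at least 2-fold. At an unadjusted p under 0.05, 3 of the 46 did in E2 and 13.6% of all genes, and edgeR and DESeq2 on the recovered reads called 0 of the 46.

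The median log2 change of the 46 genes was -0.35 in 4-OHE1 against EtOH, beside -0.043 over all genes tested. Against E2 it was -0.28, beside -0.020, and in E2 against EtOH it was -0.0092, beside -0.0049. The median moved with the scaling in all 3 comparisons: with the deposited RPKM alone it was -0.80, -0.54 and -0.20. Groups did not overlap on either scale, with 4-OHE1 the lower, for 28 genes against EtOH and 26 against E2, where 35.2% and 27.1% of all genes tested did so. The 2 comparisons share the 4-OHE1 libraries, so that the 14 genes that fell in both are not independent findings.

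The 46 genes summed to 2767 and 2843 RPKM in EtOH, 2440 and 2413 with E2, and 1544 and 1506 with 4-OHE1. As a share of the RPKM of all genes, which does not depend on the scaling, they made up 0.591 and 0.599% in EtOH, 0.569 and 0.592% with E2, and 0.462 and 0.467% with 4-OHE1. Both 4-OHE1 libraries were below all 4 others. Hspa8 and Hsp90ab1 together made up 38.0 to 41.1% of the sum in every library.

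**Figure D1:**
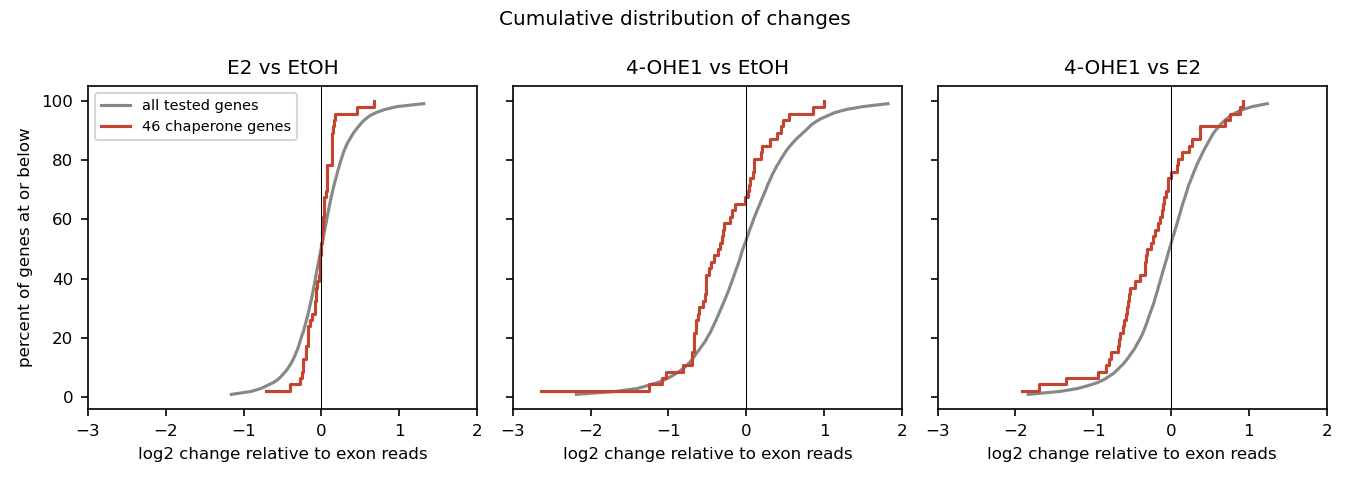
Cumulative distribution of log2 changes relative to exon reads (horizontal axis), as the percent of genes at or below each change (vertical axis), for the 46 chaperone genes (red) and all genes tested (grey, drawn between percentiles 1 and 99) in each comparison. The red curve runs left of the grey one through the middle of both 4-OHE1 panels, with medians of -0.35 and -0.28, and crosses it near 0 in the E2 panel.

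Calls in 4-OHE1 rested on both EtOH libraries. The model gave the 3 groups a common spread for each gene, to which the EtOH libraries contributed. Those libraries were the closest to each other, with a median ratio of 1.04 over the 46 genes, against 1.21 in 4-OHE1. Each SE thus describes the common spread and not that of 4-OHE1 alone. Without EtOH replicate 1 or without EtOH replicate 2, the count against EtOH went from 21 to 3 each time, with Hsph1, Stip1 and Hspa8 the 3 that passed in all 16 alternative settings. Against E2, the count went from 17 to 5 without either EtOH library, to 1 without E2 replicate 1 and to 3 without E2 replicate 2. It was also 5 with only the E2 and 4-OHE1 libraries in the fit, namely Hspa1a, Hspa8, Stip1, St13 and Cct5, and each of the other calls against E2 held in 8 to 11 of 16 settings. Each of these 21 and 17 genes had the same direction when libraries of replicate number 1 and of replicate number 2 were compared separately. Groups that do not overlap give this in any pairing, so it adds no further evidence. The share of higher genes among all genes called moved with the scaling: in 4-OHE1 against EtOH it was 29.3% with both scalings required, 12.7% with the deposited RPKM alone, 47.9% relative to exon reads alone and 50.4% with TMM scaling. The corresponding shares were 25.9, 11.2, 43.7 and 46.8% in 4-OHE1 against E2 and 44.7, 24.5, 59.4 and 58.8% in E2 against EtOH. The chaperone genes gave 2 higher and 33 lower against EtOH with the deposited RPKM alone, where 5.74% and 39.5% of all genes were called. Relative to exon reads alone they gave 2 higher and 19 lower, where 12.8% and 13.9% of all genes were.

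Promoters of 4 of the genes are shown because their letters match the paired or 3-unit form of the heat shock element and their genes differ in their change. They are the 300 bases around the gene start in RefSeq (build GRCm38.p6, while the deposited tables use mm9), written 5′ to 3′ on the gene's strand. Hsph1 lies at chr5:149636287-149636586 (minus strand), Hspa1a at chr17:34972107-34972406 (minus), Bag3 at chr7:128523333-128523632 (plus) and Chordc1 at chr9:18292017-18292316 (plus). Capitals mark matches to the paired units GAANNTTC and TTCNNGAA.
Hsph1: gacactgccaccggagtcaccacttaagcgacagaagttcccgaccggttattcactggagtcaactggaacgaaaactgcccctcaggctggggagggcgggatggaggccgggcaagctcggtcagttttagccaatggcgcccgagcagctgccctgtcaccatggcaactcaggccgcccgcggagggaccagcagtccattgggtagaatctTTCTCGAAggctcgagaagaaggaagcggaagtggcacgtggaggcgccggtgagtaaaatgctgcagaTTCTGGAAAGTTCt
Hspa1a: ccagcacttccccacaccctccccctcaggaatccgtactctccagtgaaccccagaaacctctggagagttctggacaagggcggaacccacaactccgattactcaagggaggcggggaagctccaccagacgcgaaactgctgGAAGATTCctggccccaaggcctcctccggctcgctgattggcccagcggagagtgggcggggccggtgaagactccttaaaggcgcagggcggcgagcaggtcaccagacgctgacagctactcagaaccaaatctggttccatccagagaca
Bag3: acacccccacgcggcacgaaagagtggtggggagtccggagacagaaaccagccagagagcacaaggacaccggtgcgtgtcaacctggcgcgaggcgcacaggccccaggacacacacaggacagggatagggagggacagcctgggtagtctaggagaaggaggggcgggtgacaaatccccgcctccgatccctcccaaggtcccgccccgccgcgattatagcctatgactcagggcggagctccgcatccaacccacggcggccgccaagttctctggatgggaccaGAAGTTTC
Chordc1: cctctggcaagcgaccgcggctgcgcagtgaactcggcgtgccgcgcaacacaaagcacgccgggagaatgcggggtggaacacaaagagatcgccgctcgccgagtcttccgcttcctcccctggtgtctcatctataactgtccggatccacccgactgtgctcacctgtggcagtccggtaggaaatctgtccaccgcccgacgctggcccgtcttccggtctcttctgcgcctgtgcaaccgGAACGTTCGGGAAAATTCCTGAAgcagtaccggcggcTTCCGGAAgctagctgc
Each paired unit is its own reverse complement, so 1 search covers both strands, and the 3-unit element, searched on both strands, joins them so that they share their middle unit and therefore overlaps both. A RefSeq promoter was in the table for 37 of the 46 genes, all but Hsf1, Hsp90ab1, Cct4, Dnajc2, Bag4, Hspa8, Hsp90aa1, Dnajc5 and St13. GAANNTTC was in 10 of the 37 (27.0%), beside 9.04% of 27025 genes with a promoter, and TTCNNGAA in 7 (18.9%), beside 9.60%. The 3-unit element was in Hsph1, Chordc1 and Dnajb6, 8.11% of the 37, beside 0.662% of all. In the printed Hsph1 and Chordc1 promoters it lies in the longest run of capitals, near the gene start. Of those 3 genes, Hsph1 fell in 4-OHE1 against EtOH, while Chordc1 had a log2 change of -0.32 ± 0.18 (adjusted p = 0.244) and Dnajb6 one of 0.45 ± 0.22 (adjusted p = 0.917), neither of which passed limma. Of the 34 genes whose promoter held no 3-unit element, 13 fell. A match is a description of the letters and not a binding site.

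Of the 4 HSP70 genes, 2 fell in 4-OHE1 against EtOH and 3 against E2, where 13.9% and 7.14% of all genes did. Hspa8, the constitutive HSP70 also known as Hsc70 (chr9:40609356-40613282 in mm9), stood at 624 and 641 RPKM in EtOH, 553 and 534 with E2, and 289.6 and 298 with 4-OHE1. Both 4-OHE1 libraries were below every other library, and the E2 libraries were below EtOH as well. Its log2 change in 4-OHE1 was -0.65 ± 0.049 against EtOH (adjusted p = 5e-04) and -0.62 ± 0.049 against E2 (adjusted p = 0.0016). Relative to exon reads, 4-OHE1 held 63.9% of the EtOH level.

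Hspa1a and Hspa1b encode the stress-inducible HSP70 and lie beside each other on chromosome 17 (chr17:35106304-35109101 and chr17:35093374-35096183 in mm9). Hspa1a stood at 18.2 and 17.9 RPKM in EtOH, 22.3 and 21.4 with E2, and 4.035 and 6.41 with 4-OHE1. The 3 groups did not overlap, with E2 the highest and 4-OHE1 the lowest. Its log2 change in 4-OHE1 was -1.25 ± 0.21 against EtOH (adjusted p = 0.0079) and -1.70 ± 0.21 against E2 (adjusted p = 0.0069). Hspa1b stood at 6.51 and 7.12 RPKM in EtOH, 9.85 and 10.3 with E2, and 3.59 and 2.21 with 4-OHE1, in the same order. It fell against E2, by 1.35 on the log2 scale (SE 0.21, adjusted p = 0.0138), while against EtOH its change of -0.67 ± 0.21 did not pass limma (adjusted p = 0.0608). Over 2249 aligned bases the longest coding transcripts of both genes (GENCODE M21) were 98.8% identical, with an identical run of 638 bases, and 296 of 300 promoter bases matched. Reads of the 2 genes can thus not be assigned with certainty, and how reads with several matches were counted is not given in the sources used here. Hspa14, an HSP70 bound to ribosomes, had a log2 change of -0.19 ± 0.14 in 4-OHE1 against EtOH that did not pass limma (adjusted p = 0.362).

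Of the 3 HSP110 genes, whose products act as nucleotide exchange factors of HSP70, 2 fell in 4-OHE1 in both comparisons. The shares of all genes tested that fell were 13.9% against EtOH and 7.14% against E2. Hsph1 (chr5:150419420-150438890 in mm9) had the lowest log2 change of the 46 genes. It stood at 11.2 and 11.0 RPKM in EtOH, 7.13 and 4.33 with E2, and 0.408 and 1.05 with 4-OHE1. The 3 groups did not overlap, and E2 lay between the others. The 4-OHE1 values rest on 13 and 27 reads, against 858 and 1584 in EtOH and 174 and 116 in E2. Its log2 change in 4-OHE1 was -2.63 ± 0.30 against EtOH (adjusted p = 0.0019) and -1.92 ± 0.30 against E2 (adjusted p = 0.0133). Relative to exon reads, 4-OHE1 held 9.08% of the EtOH level and 15.5% of the E2 level, and 0.457% of all genes tested had a change against EtOH as low. The 1 RPKM added before taking logs makes the log2 changes smaller than these percentages alone would give, as for other genes of low RPKM such as Bag4.

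Hspa4, also called Apg-2, stood at 40.3 and 40.0 RPKM in EtOH, 35.4 and 36.2 with E2, and 17.3 and 19.6 with 4-OHE1. Both 4-OHE1 libraries were the lowest, with log2 changes of -0.64 ± 0.11 against EtOH (adjusted p = 0.0092) and -0.67 ± 0.11 against E2 (adjusted p = 0.0166). Its close relative Hspa4l did not pass limma, with log2 changes of 0.40 ± 0.23 and 0.38 ± 0.23 (adjusted p = 0.978 and 0.65).

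**Figure D2:**
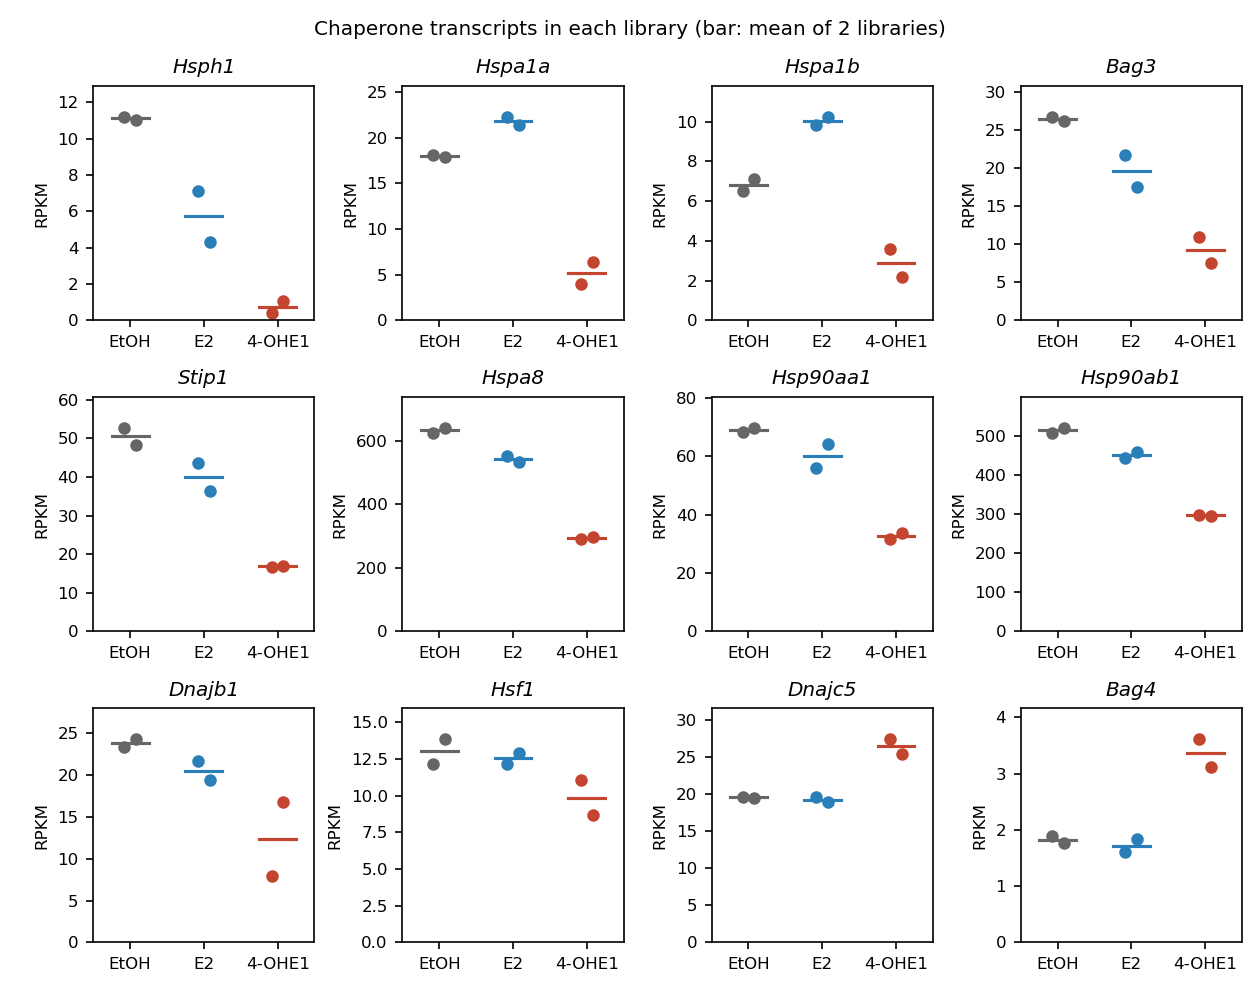
Deposited RPKM (vertical axis, from 0) of 12 chaperone genes in each library, by group (horizontal axis), with points for libraries and bars for the mean of 2 libraries. Both 4-OHE1 points lie below all others in every panel but those of Dnajc5 and Bag4, where both lie above, and in Dnajb1 the 4-OHE1 points (7.89 and 16.8 RPKM) are far apart.

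Both cytosolic HSP90 genes fell in 4-OHE1 against EtOH and against E2, where 13.9% and 7.14% of all genes tested did. Hsp90ab1, the constitutive HSP90 beta (chr17:45704727-45710210 in mm9), stood at 508 and 521 RPKM in EtOH, 443 and 459 with E2, and 297 and 296 with 4-OHE1. Hsp90aa1, the inducible HSP90 alpha (chr12:111929246-111934605), stood at 68.4 and 69.9 RPKM in EtOH, 55.9 and 64.3 with E2, and 31.7 and 33.7 with 4-OHE1. For both genes, the 4-OHE1 libraries were below all others on either scale, while E2 was below EtOH only on the deposited scale. Hsp90ab1 had log2 changes of -0.33 ± 0.056 against EtOH (adjusted p = 0.008) and -0.34 ± 0.056 against E2 (adjusted p = 0.0163). Hsp90aa1 had log2 changes of -0.61 ± 0.11 (adjusted p = 0.0112) and -0.60 ± 0.11 (adjusted p = 0.024). Their transcripts were 76.8% identical over 2177 aligned bases, with no identical run above 33 bases.

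Of the 8 HSP90 cochaperones, 5 fell in 4-OHE1 against EtOH and 2 against E2, where 13.9% and 7.14% of all genes did. Stip1, also called Hop (chr19:7095186-7114516 in mm9), bridges HSP70 and HSP90, and stood at 52.8 and 48.4 RPKM in EtOH, 43.6 and 36.3 with E2, and 16.8 and 17.0 with 4-OHE1. Its log2 changes were -1.09 ± 0.11 against EtOH (adjusted p = 0.0014) and -0.94 ± 0.11 against E2 (adjusted p = 0.0061). The 4-OHE1 libraries lay close to each other and below all others.

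St13, or Hip, stabilises the ADP-bound form of HSP70 and was the most abundant of the 8. It stood at 109 and 110.0 RPKM in EtOH, 104 and 96.5 with E2, and 54.7 and 55.9 with 4-OHE1, with log2 changes of -0.52 ± 0.071 (adjusted p = 0.0039) and -0.58 ± 0.071 (adjusted p = 0.0066). Cdc37, the cochaperone that delivers kinases to HSP90, stood at 69.9 and 71.4 RPKM in EtOH, 58.5 and 51.1 with E2, and 34.6 and 38.8 with 4-OHE1. It fell against EtOH, by 0.48 on the log2 scale (adjusted p = 0.0179), and its change of -0.31 ± 0.10 against E2 did not pass limma (adjusted p = 0.1003).

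Cacybp, which binds S100 proteins and ubiquitin ligases, stood at 22.0 and 23.3 RPKM in EtOH, 16.0 and 16.9 with E2, and 10.2 and 7.99 with 4-OHE1. It fell against EtOH (log2 change -0.82 ± 0.14, adjusted p = 0.0093), and its change against E2 did not pass limma (-0.56 ± 0.14, adjusted p = 0.0524). For St13, Cdc37 and Cacybp alike, both 4-OHE1 libraries were the lowest of the 6. Ahsa1, or Aha1, which speeds the ATPase of HSP90, stood at 63.9 and 66.8 RPKM in EtOH, 47.5 and 48.6 with E2, and 39.3 and 34.5 with 4-OHE1. Both estrogen groups lay below EtOH. Its log2 change in 4-OHE1 against EtOH was -0.36 ± 0.094 (adjusted p = 0.0351) and was called in 9 of 16 alternative settings; against E2 it was -0.12 ± 0.094 and did not pass limma (adjusted p = 0.449). Fkbp4, Ptges3 (p23) and Chordc1 did not pass limma against EtOH, with log2 changes of -0.46 ± 0.14, -0.41 ± 0.14 and -0.32 ± 0.18 (adjusted p = 0.0529, 0.0696 and 0.244).

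Of the 8 TRiC subunit genes, 7 fell in 4-OHE1 against EtOH and 5 against E2, where 13.9% and 7.14% of all genes tested did. Their median log2 changes were -0.64 and -0.60. In each subunit both 4-OHE1 libraries were below all 4 other libraries on either scale. Such separation, with 4-OHE1 the lower, held for 35.2% of all genes tested against EtOH and 27.1% against E2. Cct5, the most abundant, stood at 115 and 118 RPKM in EtOH, 103 and 104 with E2, and 61.4 and 56.3 with 4-OHE1, with log2 changes of -0.52 ± 0.074 against EtOH (adjusted p = 0.0045) and -0.55 ± 0.074 against E2 (adjusted p = 0.0088). Cct4 stood at 94.4 and 89.4 RPKM in EtOH, 83.1 and 76.0 with E2, and 38.0 and 45.9 with 4-OHE1. Cct3 stood at 69.6 and 73.6 RPKM in EtOH, 60.6 and 65.5 with E2, and 35.8 and 29.3 with 4-OHE1. These subunits fell by 0.67 each against EtOH on the log2 scale (adjusted p = 0.009 and 0.0087 in limma), and by 0.65 and 0.68 against E2 (adjusted p = 0.0195 and 0.0173).

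Cct6a stood at 62.7 and 61.3 RPKM in EtOH, 55.3 and 58.7 with E2, and 24.3 and 31.0 with 4-OHE1. Cct8 stood at 56.4 and 58.4 RPKM in EtOH, 54.5 and 55.9 with E2, and 30.2 and 21.4 with 4-OHE1. Against EtOH, Cct6a fell by 0.70 and Cct8 by 0.70 on the log2 scale (adjusted p = 0.0145 and 0.0195 in limma); against E2, by 0.77 and 0.83 (adjusted p = 0.0209 and 0.0211). Both 4-OHE1 libraries of these subunits lay apart from the others while differing among themselves. The Cct8 call against EtOH held in 10 of 16 alternative settings. Cct7 stood at 56.6 and 60.1 RPKM in EtOH, 54.2 and 42.3 with E2, and 30.3 and 24.5 with 4-OHE1, and fell against EtOH by 0.62 (adjusted p = 0.0202 in limma). Against E2 its change of -0.53 ± 0.14 did not pass (adjusted p = 0.0529).

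Cct2 and Tcp1 had the smallest changes of the 8 subunits against EtOH. Cct2 stood at 84.6 and 85.7 RPKM in EtOH, 69.0 and 67.9 with E2, and 50.4 and 50.5 with 4-OHE1, and fell against EtOH by 0.29 on the log2 scale (SE 0.074, adjusted p = 0.0323 in limma), with -0.17 ± 0.074 against E2 (adjusted p = 0.177). Tcp1, the subunit after which the complex is named, stood at 61.2 and 69.0 RPKM in EtOH, 56.7 and 51.5 with E2, and 42.2 and 34.7 with 4-OHE1. Its log2 changes of -0.30 ± 0.11 against EtOH and -0.23 ± 0.11 against E2 did not pass limma (adjusted p = 0.102 and 0.232). From start to end, introns included, Tcp1 overlaps Acat3 on the other strand by 1109 bases. The counting command in the file headers names no strand, so reads from exons of both genes there could not be told apart. Cct7 and Cct8 overlap Pradc1 and Usp16, also on the other strand, by 466 and 189 bases from start to end. How many of these bases are exonic was not measured. The subunit with the most RPKM exceeded the one with the least by 2.04 and 2.02 times in EtOH, 1.91 and 2.46 times in E2, and 2.53 and 2.63 times in 4-OHE1.

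**Figure D3:**
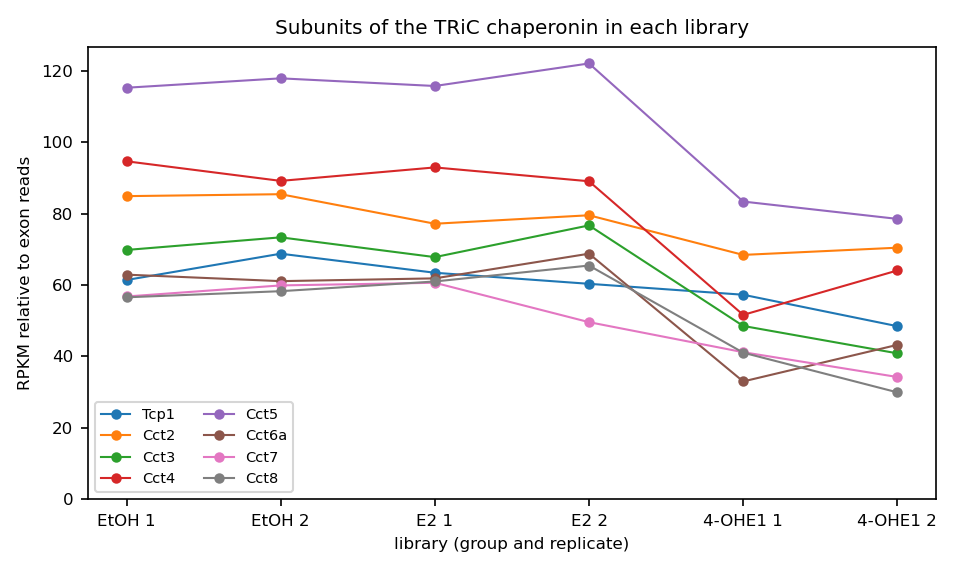
RPKM relative to exon reads (vertical axis, from 0) of the 8 TRiC subunits in the 6 libraries (horizontal axis); points are libraries, and lines only join the points of a subunit. On this scale the E2 points stay near the EtOH points, and both 4-OHE1 points of every subunit lie below the other 4.

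Of the 11 J proteins, 0 fell and 1 rose in each 4-OHE1 comparison, with a median log2 change of 0.081 against EtOH and -0.035 against E2. At an unadjusted p under 0.05, 1 of the 11 passed limma in each, beside 29.1% of all genes against EtOH and 22.2% against E2. Dnajc5, the cysteine string protein (chr2:181255190-181287585 in mm9), which resides on vesicles and is known from synapses, stood at 19.6 and 19.5 RPKM in EtOH, 19.6 and 19.0 with E2, and 27.5 and 25.5 with 4-OHE1. Both 4-OHE1 libraries were above all others, and it rose by 0.86 ± 0.10 against EtOH (adjusted p = 0.0194) and by 0.70 ± 0.10 against E2 (adjusted p = 0.0308) on the log2 scale. Its transcript in the RPKM table differs from that in the authors' tables of tests, as do those of Dnaja1, Dnajb2, Dnajb6, Bag6 and Tcp1.

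Dnajb1, or Hsp40, the stress-inducible partner of HSP70, stood at 23.4 and 24.4 RPKM in EtOH, 21.6 and 19.4 with E2, and 7.89 and 16.8 with 4-OHE1. The 4-OHE1 libraries were the lowest on the deposited scale, but replicate 2 reached the range of the other groups relative to exon reads, and the log2 change of -0.55 ± 0.32 did not pass limma (adjusted p = 0.243). The log2 change was -1.09 without 4-OHE1 replicate 2 and -0.022 without 4-OHE1 replicate 1. Either fit leaves 4-OHE1 with 1 library and so holds no spread of that group. Dnajc8, a J protein found with splicing factors and the most abundant of the 11, stood at 69.4 and 74.4 RPKM in EtOH, 62.4 and 66.0 with E2, and 61.5 and 46.1 with 4-OHE1 (log2 change 0.028 ± 0.14, adjusted p = 0.9). The changes of the other 8, Dnaja1, Dnaja2, Dnajb2, Dnajb4, Dnajb6, Dnajc2, Dnajc7 and Dnajc21, ran from -0.52 for Dnaja1 to 0.45 for Dnajb6 against EtOH and passed limma in neither 4-OHE1 comparison.

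Among the 6 BAG proteins and Hspbp1, which all act on nucleotide exchange of HSP70 or are related to proteins that do, 1 fell and 1 rose in each 4-OHE1 comparison. Of all genes tested, 13.9% fell and 5.74% rose against EtOH, and 7.14% fell and 2.5% rose against E2. Bag3, which couples HSP70 to small heat shock proteins and selective autophagy (chr7:135667097-135690493 in mm9), stood at 26.8 and 26.2 RPKM in EtOH, 21.7 and 17.6 with E2, and 10.9 and 7.55 with 4-OHE1. The 3 groups did not overlap. It fell, by 1.03 on the log2 scale against EtOH (SE 0.18, adjusted p = 0.009 in limma) and by 0.79 against E2 (SE 0.18, adjusted p = 0.0384).

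Bag4, known as a silencer of death receptors (chr8:26875011-26895681 in mm9), stood at 1.89 and 1.76 RPKM in EtOH, 1.60 and 1.83 with E2, and 3.62 and 3.12 with 4-OHE1. Both 4-OHE1 libraries, with 160 and 111 reads, were the highest. It rose by 0.99 ± 0.21 against EtOH (adjusted p = 0.0424), a call kept in 9 of 15 alternative settings, and its change of 0.93 ± 0.21 against E2 did not pass limma (adjusted p = 0.0535). Bag5 stood at 14.3 and 15.6 RPKM in EtOH, 8.65 and 10.6 with E2, and 17.3 and 13.6 with 4-OHE1. E2 was the lowest group on both scales, and 4-OHE1 overlapped EtOH only on the deposited one. Bag5 rose against E2 by 0.88 ± 0.17 (adjusted p = 0.0415; kept in 8 of 16 settings) without passing against EtOH (0.47 ± 0.17, adjusted p = 0.867). Bag1, the most abundant of these genes, stood at 98.0 and 107 RPKM in EtOH, 86.3 and 95.9 with E2, and 74.0 and 73.8 with 4-OHE1, a log2 change of -0.012 ± 0.096 relative to exon reads (adjusted p = 0.942). Hspbp1, Bag6 and Bag2 did not pass limma in either 4-OHE1 comparison, with log2 changes against EtOH of -0.54 ± 0.18, -0.21 ± 0.11 and 0.30 ± 0.43.

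The transcription factor Hsf1 stood at 12.1 and 13.9 RPKM in EtOH, 12.2 and 12.9 with E2, and 11.0 and 8.67 with 4-OHE1. On the deposited scale the 4-OHE1 libraries were the lowest, and relative to exon reads the groups overlapped. Its log2 change in 4-OHE1 against EtOH was 0.049 ± 0.16 relative to exon reads and -0.37 on the deposited scale, and it did not pass limma (adjusted p = 0.846). Its mRNA level does not measure the activity of the protein, which is set after translation. Hsf2 had a log2 change of 0.094 ± 0.19 (adjusted p = 0.755). Hspb1, or HSP25, a small heat shock protein that holds unfolded clients, stood at 7.05 and 7.17 RPKM in EtOH, 5.37 and 5.18 with E2, and 4.83 and 12.7 with 4-OHE1. The 4-OHE1 libraries lay on both sides of the other groups on the deposited scale. Relative to exon reads they stood at 6.55 and 17.8, on both sides of EtOH but above E2 (6.003 and 6.065). The Hspb1 change of 0.55 ± 0.39 in 4-OHE1 against EtOH did not pass limma (adjusted p = 0.775).

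**Figure D4:**
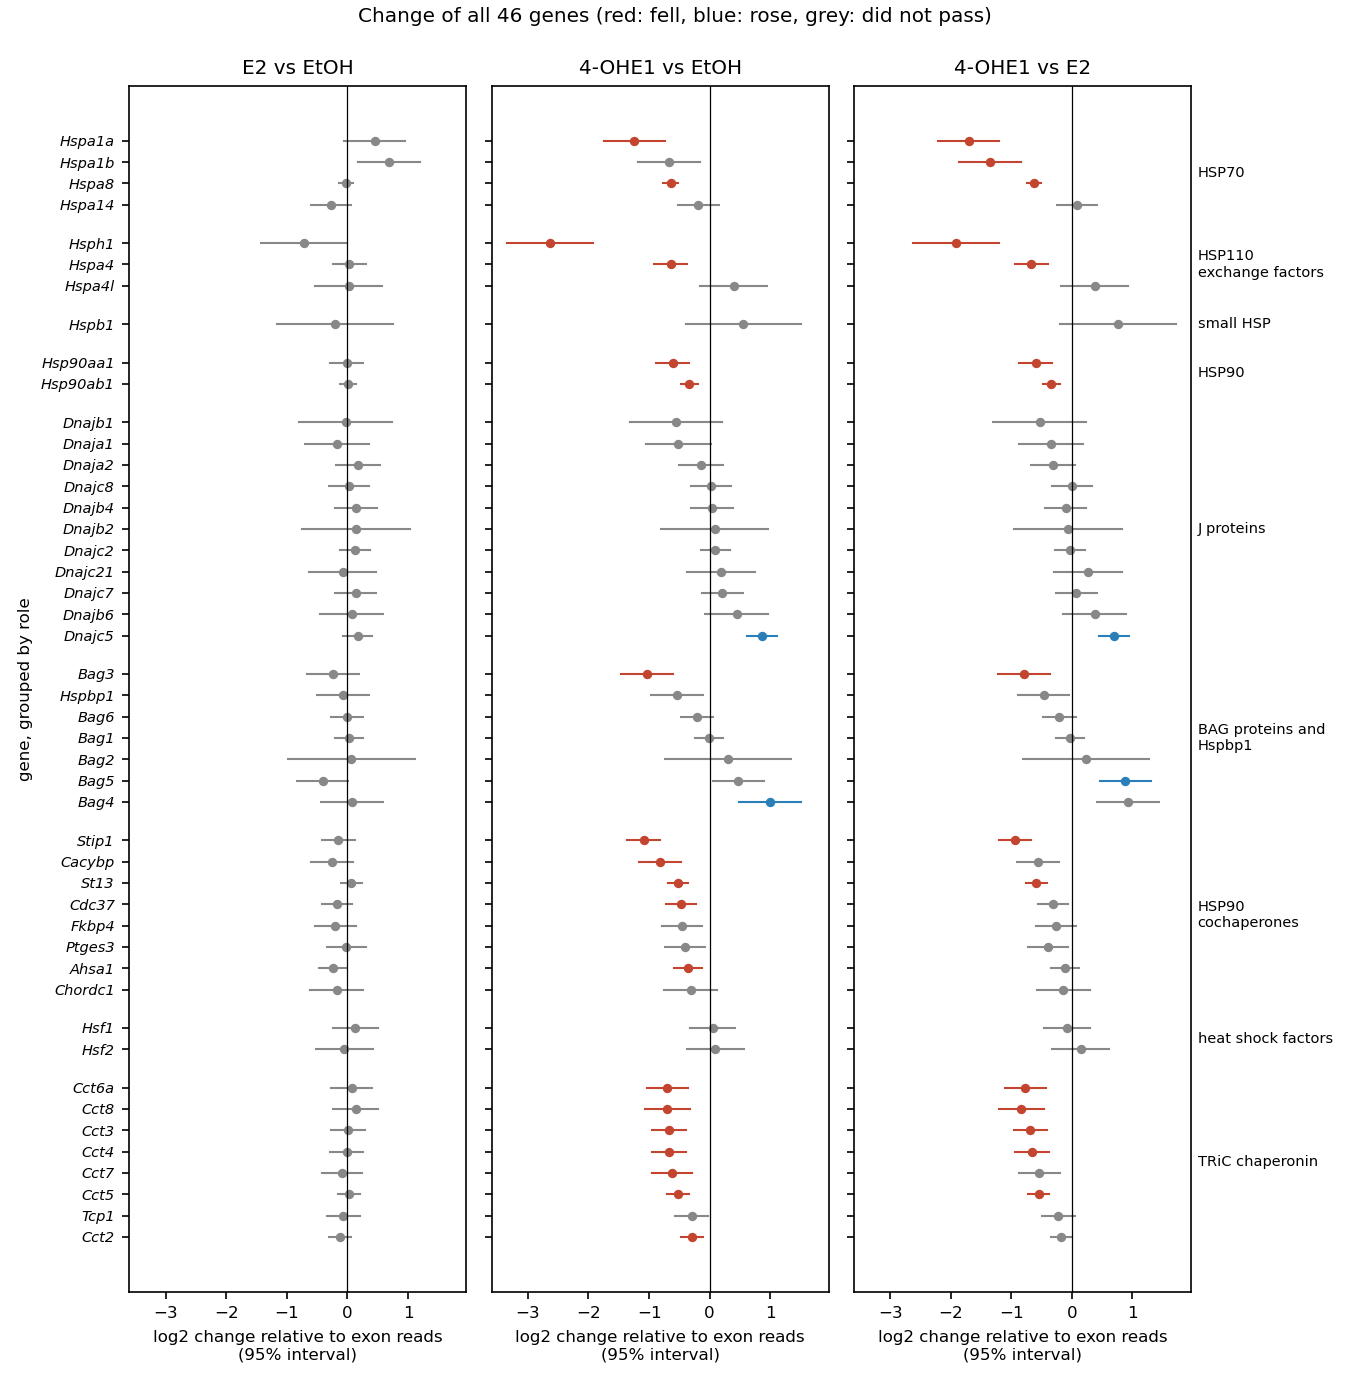
Log2 change relative to exon reads (horizontal axis) with its 95% interval for each of the 46 genes (vertical axis, by role), in the 3 comparisons; red genes fell, blue genes rose and grey genes did not pass. The E2 panel is grey throughout, and in both 4-OHE1 panels red genes gather among the HSP70, HSP110, HSP90, cochaperone and TRiC genes, with Bag3 besides, and blue genes are J and BAG proteins.

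In E2 against EtOH, the comparison of estradiol with its vehicle, the abundant chaperones differed little. The 95% intervals of the log2 change were -0.14 to 0.093 for Hspa8, -0.13 to 0.14 for Hsp90ab1 and -0.28 to 0.26 for Hsp90aa1. Over the 8 TRiC subunits, the changes ran from -0.12 for Cct2 to 0.14 for Cct8. The extremes among the 46 were Hsph1 at -0.72 (interval -1.43 to -0.0024, adjusted p = 0.274) and Hspa1b at 0.68 (0.17 to 1.19, adjusted p = 0.1998), with Hspa1a at 0.45 and Bag5 at -0.41. None of these passed limma, although for all 4 genes the E2 and EtOH libraries did not overlap on either scale. Groups did not overlap for 12 genes with E2 lower and 2 with E2 higher, where 29.8% and 15% of all genes did so. Hspa1b was called, at 0.68, when either 4-OHE1 library was left out of the common fit.

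In the authors' deposited table of edgeR tests for E2 against EtOH, 2 of the 46 genes were higher and 2 lower at an adjusted p below 0.05, as were 9.13% and 10.3% of the 10950 genes tested here. In the authors' deposited table, Hspa1b had a log2 fold change of 0.73 (adjusted p = 1.1e-04), Hspa1a 0.44 (0.00166), Hsph1 -0.80 (6.6e-04) and Bag5 -0.46 (0.0493). In the authors' deposited table for 4-OHE1 against EtOH, 2 were higher and 18 lower, where 11.1% and 12.7% of the same genes were, with Hsph1 at -3.57 (adjusted p = 4.8e-16) and Stip1 at -1.19 (adjusted p = 2.1e-10). Ahsa1 and Cct2, which fell in limma, did not pass in the authors' edgeR tests (adjusted p = 0.0786 and 0.0838). Fkbp4, which did not pass limma, was lower there (adjusted p = 0.0198).

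In the direct comparison of 4-OHE1 with E2, given at the same dose over the same time, Hsph1, Hspa1a and Hspa1b had the lowest log2 changes, at -1.92, -1.70 and -1.35. For Hspa1a and Hspa1b, the E2 libraries also lay above those of EtOH. Of the 15 genes that fell against E2, Hspa1b was the one that did not pass against EtOH. Ahsa1, Cacybp, Cct2, Cct7 and Cdc37 fell against EtOH and did not pass against E2, with 95% intervals against E2 of -0.35 to 0.11, -0.91 to -0.22, -0.35 to 0.007, -0.87 to -0.20 and -0.55 to -0.062. Bag5 and Dnajc5 rose against E2, and Bag4 did not pass, with an interval of 0.41 to 1.44.

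Libraries of a group differed more in 4-OHE1 than in the other groups. The higher library exceeded the lower by a median factor of 1.04 over the 46 genes in EtOH, 1.09 in E2 and 1.21 in 4-OHE1. In 4-OHE1, 5 genes differed at least 2-fold between both libraries: Hspb1, Hsph1, Dnajb1, Dnajb2 and Bag2, the last with the highest ratio, 3.83, on 12 and 37 reads. In EtOH and E2, 0 genes did. The deeper EtOH libraries have less counting error, which was not separated here from other sources of spread.

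Other genes of the chaperone network were counted from listed groups. Of all genes tested, 13.9% fell and 5.74% rose in 4-OHE1 against EtOH. Of 13 prefoldin and R2TP genes, which pass clients to TRiC and HSP90, 2 fell in 4-OHE1 against EtOH and 0 rose: Pdrg1 (log2 change -0.59) and Ruvbl2 (-0.49). Of 18 further HSP90 and HSP70 cochaperones, 2 rose and 1 fell. Fkbp5, an immunophilin of HSP90 that glucocorticoids induce, stood at 12.2 and 11.4 RPKM in EtOH, 73.2 and 63.3 with E2, and 152 and 159 with 4-OHE1. It rose in both estrogen groups against EtOH, by 2.62 in E2 and 4.07 in 4-OHE1 on the log2 scale, and in 4-OHE1 against E2, by 1.44. Tsc1 rose (1.14) and Ppid fell (-0.72). Of 12 tested among 16 further J proteins, HSP70s and small heat shock proteins, Cryab (1.13) and Dnajc13 (0.80) rose and Dnajb14 (-1.79) and Dnajc9 (-0.84) fell.

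Of 9 further genes known as HSF1 targets, 4 fell in 4-OHE1 against EtOH and 7 against E2, with 0 higher. Of all genes tested, 13.9% and 7.14% fell in these comparisons. Serpinh1, the collagen chaperone HSP47, had the lowest change against EtOH (-1.51), and the mitochondrial chaperonin Hspd1 had a change of -1.01. Serpinh1 is a gene of collagen-producing cells. Among 6 stromal cell markers, Col1a1, Col1a2 and Col3a1 fell in both estrogen groups against EtOH. All genes tested fell at 2.17% in E2 and 13.9% in 4-OHE1. The 6 markers summed to 236 and 240 RPKM in EtOH, 171 and 167 with E2, and 128 and 126 with 4-OHE1. In 4-OHE1 against E2, Serpinh1 fell and 0 of the 6 markers passed limma. A link between Serpinh1 and these markers was not tested. In E2 against EtOH, 0 of the 9 passed limma.

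Other quantities differed between the same groups. Of 13 immediate early genes, which cell dissociation can induce together with Hspa1a, Hspa1b and Dnajb1, 8 fell in 4-OHE1 against EtOH and 11 against E2. Of all genes tested, 13.9% and 7.14% fell in these comparisons. In E2 against EtOH, 2 of the 13 rose and 1 fell, where 1.75% and 2.17% of all genes did. The sum of the 13 genes was 4320 and 4405 RPKM in EtOH, 4184 and 3903 with E2, and 1777 and 1739 with 4-OHE1. Of 8 adipocyte markers, 6 rose in 4-OHE1 and 4 in E2 against EtOH, where 5.74% and 1.75% of all genes tested did. Their log2 changes ran from -0.35 to 3.56 in 4-OHE1 and from -0.52 to 2.54 in E2. The 8 markers summed to 431 and 443 RPKM in EtOH, 708 and 715 with E2, and 866 and 866 with 4-OHE1. The nuclear-retained RNA Malat1 stood at 200.1 and 198 RPKM in EtOH, 359 and 506 with E2, and 853 and 985 with 4-OHE1. Markers of T and NK cells summed to at most 2.24 RPKM in any library and those of mast cells to at most 2.995, and neither held a gene above the filter. The neutrophil markers summed to 8.28 to 13.7 RPKM over the 6 libraries, with Ly6g, which defines these cells, listed at 0 in all of them and 0 of the list called. Markers of B cells summed to 7.95 to 11.9 RPKM, of endothelial cells to 14.6 to 22.7, of mesothelial cells to 1.86 to 8.47 and of erythroid cells to 53.4 to 82.3, and the only call among these was Cdh5, higher in 4-OHE1 against E2. The 6 testis and epididymis markers summed to 2.71 and 2.06 RPKM in EtOH, 16.5 and 9.32 with E2, and 4.38 and 4.76 with 4-OHE1. Of these, 3 passed the filter. Prm1 and Prm2 rose in E2 against EtOH, Prm1 rose in 4-OHE1 against EtOH, and Prm2 fell in 4-OHE1 against E2. Among the 6 macrophage markers, Adgre1 (F4/80, a marker of the sort), Fcgr1 and Cd68 fell in 4-OHE1 against EtOH and Mertk rose. Against E2, Itgam (CD11b, the other marker of the sort), Fcgr1 and Cd68 fell and Mertk rose, and in E2 against EtOH Adgre1 fell. All 6 passed the filter, and they summed to 2415 and 2471 RPKM in EtOH, 2066 and 1953 with E2, and 1647 and 1576 with 4-OHE1. All genes tested summed to 466408 and 473231 RPKM in EtOH, 427306 and 405929 with E2, and 332512 and 321061 with 4-OHE1. Sums of deposited RPKM thus carry the difference in exon share. Relative to exon reads, the median log2 change of the 6 macrophage markers was -0.28 in 4-OHE1 against EtOH and -0.18 against E2. In E2 against EtOH it was 0.037. On the deposited scale, the sums of immediate early genes and of adipocyte, stromal and macrophage markers each separated 4-OHE1 from EtOH, as the chaperone sum did. Malat1 and the exon share did so as well. The part of these quantities in the result was not tested.

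**Figure D5:**
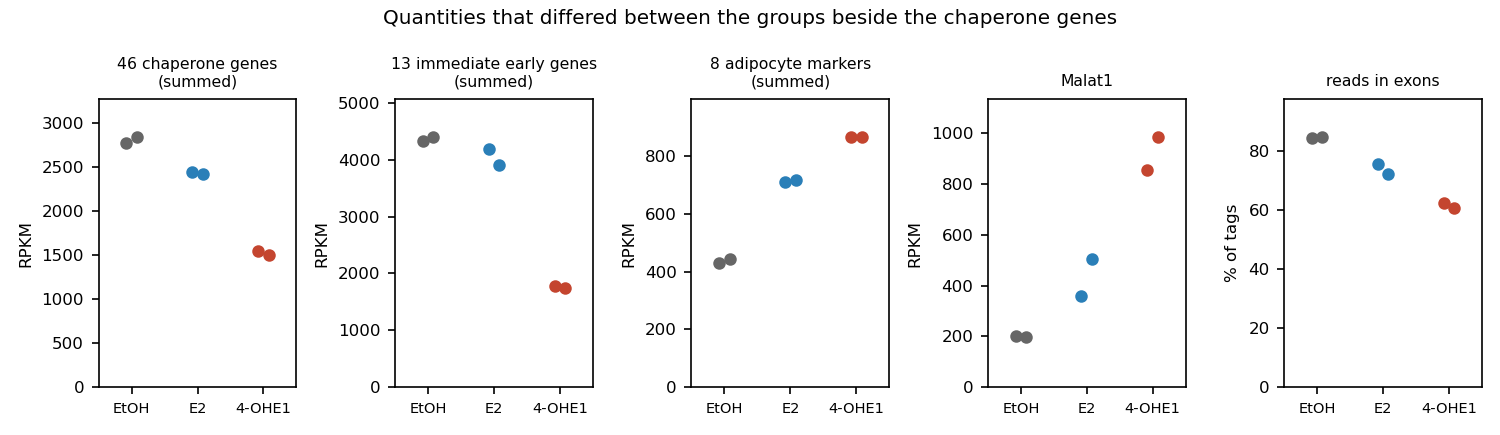
Values in each library by group (horizontal axis): the sum of the 46 chaperone genes, of 13 immediate early genes and of 8 adipocyte markers and the level of Malat1, all in RPKM, and the percent of tags in exons; every vertical axis starts at 0 and points are libraries. The 4-OHE1 points are the lowest for the chaperone sum, the immediate early genes and the exon share (62.5 and 60.8%), and the highest for the adipocyte markers and Malat1.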

How the data were processed

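Reads had been processed by the submitters with STAR, HOMER, DESeq2 and edgeR on mouse build mm9, per the submitters' processing notes, which give no versions. Per the file headers, HOMER counted reads over exons and condensed isoforms to genes, with no strand named. The deposited RPKM values are relative to exon length and to all tags of the library. A further 2 deposited edgeR tables hold signal, normalised exon reads, with log2 fold changes and p-values of each estrogen over EtOH; 4-OHE1 is named E1170 there. The authors' shorter lists of genes lower by 2-fold were not used here. All 119614 signal values above 0 came out whole within 0.05 reads once divided by a library's constant, which gave back the reads; 266 genes with differing transcripts stayed out of tests on reads.

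log2(RPKM + 1) was tested two-sided by limma-trend (limma 3.58.1, R 4.3.3), in a common group-means model of the 6 libraries, Benjamini-Hochberg adjusted over 10950 genes with a mean of at least 1 RPKM. It was run on the deposited RPKM and on RPKM multiplied by the ratio of the EtOH mean exon share to that of the library. Alternatives were edgeR 4.0.16 and DESeq2 1.42.0 on recovered reads, TMM scaling, each scaling alone, other pseudocounts and filters, a replicate block, only the libraries compared, and each library left out. The design called for protein identities, and transcripts (Biopython 1.88) were aligned in their place. Genes named with values in every library are those called in any comparison, the most abundant of each role, and Hspa1a, Hspa1b, Dnajb1, Hsp90aa1, Hsph1 and Hsf1; of other lists, at most 4 called genes. The members and lists were chosen with earlier results of these data known. Of 1 gene in the lists, the values are not reported here.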

Additional observations from a re-analysis of the deposited data

How the results depend on the processing

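The chaperone counts in E2 against EtOH, 4-OHE1 against EtOH and 4-OHE1 against E2 were 0, 21 and 17, and over all genes 430, 2150 and 1056. With the deposited RPKM alone, the chaperone counts were 0, 35 and 27 and the counts over all genes 789, 4957 and 2436. With only the libraries compared, they were 1, 21 and 5, and 1029, 1819 and 338. On recovered reads edgeR gave 0, 24 and 20, and 919, 3523 and 1748; DESeq2 gave 0, 22 and 19, and 1061, 3324 and 1811. Leaving out 1 library at a time gave 0 to 1, 3 to 27 and 1 to 20 chaperone genes, and 46 to 1037, 563 to 3181 and 172 to 2241 genes in all. A lone remaining library was then assumed to vary like the other groups. The other alternatives (pseudocount 0.1, no filter, a mean of at least 5 RPKM, exon reads alone, TMM) kept each count within 1.5 times. Libraries with the same number did not deviate together (correlations -0.0088, -0.020 and 0.010), although their sample descriptions share a prefix whose meaning the labels do not give. The replicate block gave 0, 18 and 15 chaperone genes and 330, 1911 and 856 in all, without Bag4, Ahsa1 and Cct2 against EtOH and Bag5 and Dnajc5 against E2.

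Dnajb1, Hsf1 and Hsp90aa1 turned sign in some setting of a comparison they did not pass. In E2 against EtOH, Hsf1 was -0.049 with the deposited RPKM alone and Hsp90aa1 0.0017 with DESeq2, and leaving out 1 library gave -0.070 to 0.019 for Dnajb1 and -0.14 to 0.12 for Hsp90aa1. In 4-OHE1 against EtOH, Hsf1 was -0.37 with the deposited RPKM alone and -0.095 to 0.19 with 1 library left out. Against E2, that range was -1.06 to 0.0032 for Dnajb1 and -0.23 to 0.059 for Hsf1. Beyond the scaling, which acts on all genes, and the smaller number of libraries, the cause was not tested. Depth limits the low genes most: Hsph1 had 13 and 27 reads in 4-OHE1.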
